A study of Mus musculus with 12 samples.

Results

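The genes described are 10 macrophage and lysozyme genes, followed across 12 RNA-seq libraries of mouse heart tissue and heart organoids, namely the complement genes C1qa, C1qb and C1qc, the macrophage genes Csf1r, Cd68, Mrc1, Ptprc and Trem2, and the lysozyme genes Lyz1 and Lyz2. They were chosen by name from the 26190 genes of the deposited table, with earlier results of these data known. All 10 were found there and passed the filter on low counts in every comparison. The libraries formed 4 groups of 3 replicates. Embryonic hearts (E11.5H) of C57BL/6 mice gave atria and ventricles at E11.5. Heart organoids (HOs), after 13 days of culture, were cut into a part that looked like atrium and one that looked like ventricle, called atrium-like or ventricle-like here. HOs were grown from wild-type mouse embryonic stem cells, which the labels give as C57BL/6 and the methods as lines of C57BL/6 and of an F1 hybrid of C57BL/6 and JF1, on a laminin-entactin matrix with Fgf4 and, later, BMP4, BIO and LIF. The methods describe HOs in biological triplicate, each divided into both parts. Which line each HO library came from, and whether equal numbers mark the same HOs, is not given in the sources used here. Every library is bulk RNA, so that fewer macrophages and less RNA per macrophage could not be told apart.

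Macrophages are the main immune cells of the embryonic heart. They arise from yolk sac and fetal progenitors, depend on signalling through Csf1r, the receptor of the growth factors Csf1 and Il34, and take up dying cells and debris. C1qa, C1qb and C1qc encode the chains of C1q, the recognition subunit of complement, which tissue macrophages secrete. Ptprc encodes CD45, a phosphatase on the surface of all white blood cells, Mrc1 the mannose receptor CD206 of tissue macrophages, Trem2 a lipid-sensing receptor of phagocytes, and Cd68 a glycoprotein of the lysosomal membrane. Lysozyme cuts the bacterial cell wall. Mice carry a pair of lysozyme genes next to each other, Lyz2, the form of macrophages and neutrophils, and Lyz1, best known from the Paneth cells of the small intestine.

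Each library held 23971258 to 30540993 fragments in genes. Levels are given as deposited FPKM (fragment numbers scaled by transcript length and library size), with the libraries of a group in the order of replicates 1, 2 and 3. Differences come from the fragment numbers, tested with edgeR, and a gene was called at a Benjamini-Hochberg adjusted p under 0.05 with an absolute log2 fold change over 1. The common coefficient of biological variation was 0.211 among the E11.5H libraries and 0.677 among the HO libraries, so that only large differences could be called within HOs. Against their labels, the HO libraries held less cardiomyocyte RNA and more RNA of gut epithelium. The summed level of 16 cardiomyocyte genes lay between 15591 and 18833 FPKM in E11.5H, and was 317 to 1239.6 FPKM in atrium-like and 1912 to 4627 FPKM in ventricle-like parts. For 12 gut epithelium genes it lay between 75.1 and 103 FPKM in E11.5H, and was 1925 to 12904 FPKM in atrium-like and 634 to 3024 FPKM in ventricle-like parts.

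The C1q genes lie side by side on the minus strand of chromosome 4, C1qb at 136880126 to 136886200, C1qc at 136889802 to 136892914 and C1qa at 136895916 to 136898844 (mm10, as the authors' table gives them). Cd68 lies on chromosome 11 (69664213 to 69666170), Mrc1 on chromosome 2 (14229414 to 14332023), Ptprc on chromosome 1 (138062859 to 138175305) and Trem2 on chromosome 17 (48346401 to 48352276). In GENCODE, Mrc1 overlaps the microRNA gene Mir511 and Ptprc the gene A130071D04Rik, so that some of their fragments may belong to these.

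The mouse lysozyme genes are near copies, so their coding sequences are shown first, because they set how well fragments could be assigned to the one or the other. In the authors' table Lyz1 lies on the minus strand of chromosome 10 from 117287795 to 117292868 and Lyz2 on the same strand from 117277541 to 117282272 (mm10). The first 300 of 444 coding bases are given from the GENCODE transcripts of GRCm38, from the start codon on, and capitals mark the 20 bases that differ there.
Lyz1: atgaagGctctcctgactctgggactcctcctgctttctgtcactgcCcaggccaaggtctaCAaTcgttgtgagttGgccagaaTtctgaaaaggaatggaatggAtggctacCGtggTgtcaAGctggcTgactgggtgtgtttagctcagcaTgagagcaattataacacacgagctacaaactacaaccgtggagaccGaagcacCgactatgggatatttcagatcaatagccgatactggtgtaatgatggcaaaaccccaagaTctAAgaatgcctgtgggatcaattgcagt
Lyz2: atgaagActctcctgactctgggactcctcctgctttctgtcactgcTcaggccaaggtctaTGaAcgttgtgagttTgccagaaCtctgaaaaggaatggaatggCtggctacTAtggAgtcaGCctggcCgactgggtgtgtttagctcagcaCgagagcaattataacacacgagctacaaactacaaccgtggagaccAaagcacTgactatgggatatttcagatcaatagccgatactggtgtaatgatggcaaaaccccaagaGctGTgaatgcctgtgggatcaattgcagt
Of the 444 coding bases 22 differed (95.0% identity), and the longest identical run was 118 bases. Over the whole transcript, untranslated regions included, 16.1% of the 50-base windows of Lyz1 and 2.06% of its 100-base windows were also present in Lyz2. A fragment from the identical run could have come from either gene, and the sources used here do not say how such fragments were divided.

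The promoters are shown for the pair of lysozyme genes, whose levels parted in HOs, and for C1qb and C1qc, whose levels stayed close in order across the libraries. The last 100 bases before the start sites of Lyz1 (chr10:117292869-117292968) and Lyz2 (chr10:117282273-117282372), both on the minus strand in RefSeq of GRCm38.p6, differed at 8 positions, which are in capitals. The 50 bases next to the start were identical.
Lyz1 promoter: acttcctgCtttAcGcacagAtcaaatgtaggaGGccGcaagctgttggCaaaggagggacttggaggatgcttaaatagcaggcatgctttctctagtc
Lyz2 promoter: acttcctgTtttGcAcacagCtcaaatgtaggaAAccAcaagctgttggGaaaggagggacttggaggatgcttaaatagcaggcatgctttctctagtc
The hexamer GAGGAA, known from sites of Spi1 (PU.1), a factor that macrophages require, was searched on both strands as GAGGAA and TTCCTC. Of 32851 mouse promoter windows of 250 bases, 23.3% held it, against 6 of the 9 windows of 8 member genes in the RefSeq table. Csf1r was left out of the member windows searched for this hexamer, and C1qa had no window. C1qb held it 30 bases and C1qc 193 bases before the start (minus strand, chr4:136886201-136886450 and chr4:136892915-136893164), as the capitals show, and neither lysozyme gene held it.
C1qb promoter: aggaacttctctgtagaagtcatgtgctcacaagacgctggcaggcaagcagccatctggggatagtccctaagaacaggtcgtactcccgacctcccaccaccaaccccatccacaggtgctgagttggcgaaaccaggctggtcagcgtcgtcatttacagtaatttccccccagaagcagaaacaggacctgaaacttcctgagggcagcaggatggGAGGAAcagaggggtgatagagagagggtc
C1qc promoter: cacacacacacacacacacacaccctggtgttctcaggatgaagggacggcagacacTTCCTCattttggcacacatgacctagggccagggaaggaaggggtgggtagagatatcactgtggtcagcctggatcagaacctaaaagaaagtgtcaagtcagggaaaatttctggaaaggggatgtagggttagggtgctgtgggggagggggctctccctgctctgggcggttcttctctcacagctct
A match of letters is a description of these windows and says nothing of binding. Other forms of such sites were not searched, so a window without the hexamer may still hold one.

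In the embryonic heart the C1q genes, Csf1r and Cd68 were higher in atria than in ventricles, by about 3-fold, while both lysozyme genes were lower in atria. C1qb had 12.1, 21.9 and 19.0 FPKM in atria and 5.72, 5.57 and 5.61 FPKM in ventricles. Csf1r had 3.30, 8.16 and 4.83 FPKM in atria and 1.88, 1.58 and 1.49 FPKM in ventricles. For both genes every atrial library lay above every ventricular library. The log2 fold change was 1.57 (SE 0.21, adjusted p = 9.29e-04) for C1qb and 1.64 (SE 0.28, adjusted p = 0.00385) for Csf1r.

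C1qa had 3.63, 6.53 and 8.34 FPKM in atria and 1.15, 1.36 and 2.75 FPKM in ventricles. C1qc had 7.18, 13.8 and 12.6 FPKM in atria against 4.69, 2.82 and 3.39 FPKM in ventricles. Cd68 was low in both chambers, at 1.68, 2.98 and 2.20 FPKM in atria and 0.825, 0.348 and 0.733 FPKM in ventricles. The chambers did not overlap for these genes either, and the log2 fold changes were 1.72 for C1qa (SE 0.44, adjusted p = 0.0259), 1.55 for C1qc (SE 0.29, adjusted p = 0.00599) and 1.77 for Cd68 (SE 0.51, adjusted p = 0.0459). The call of Cd68 rested on few fragments, 14 to 125 per library, and was lost without any 1 of the 6 libraries, with adjusted p from 0.0504 without replicate 1 of atria to 0.154 without replicate 2 of atria. That of C1qa was lost without replicate 2 or 3 of atria (adjusted p = 0.0792 and 0.115) and without replicate 1 or 2 of ventricles (adjusted p = 0.0832 and 0.0970).

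Mrc1, Ptprc and Trem2 were scarce in E11.5H and were not called. Ptprc had 0.224, 0.330 and 0.315 FPKM in atria, and 0.0826, 0 and 0.0538 FPKM in ventricles, where no fragment was found in replicate 2. Its groups did not overlap (log2 fold change 2.59, SE 0.96, adjusted p = 0.110). Mrc1 had 0.547, 1.68 and 1.01 FPKM in atria and 0.141, 0.128 and 0.554 FPKM in ventricles, and Trem2 0.394, 1.5 and 0.699 against 0.190, 0.243 and 0.414 FPKM. Both overlapped between the chambers, where 33.1% of all genes did not, 21.3% higher and 11.8% lower in atria, with log2 fold changes of 1.88 (SE 0.62, adjusted p = 0.0747) and 1.52 (SE 0.76, adjusted p = 0.238). In all, 5 of the 10 genes were called higher and 2 lower in atria, where 4.89% of the 14538 genes tested were called, 2.92% higher and 1.97% lower. The count of 7 was 0 when all 12 libraries entered 1 fit, in which the wider spread of HOs was shared with E11.5H.

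**Figure D1:**
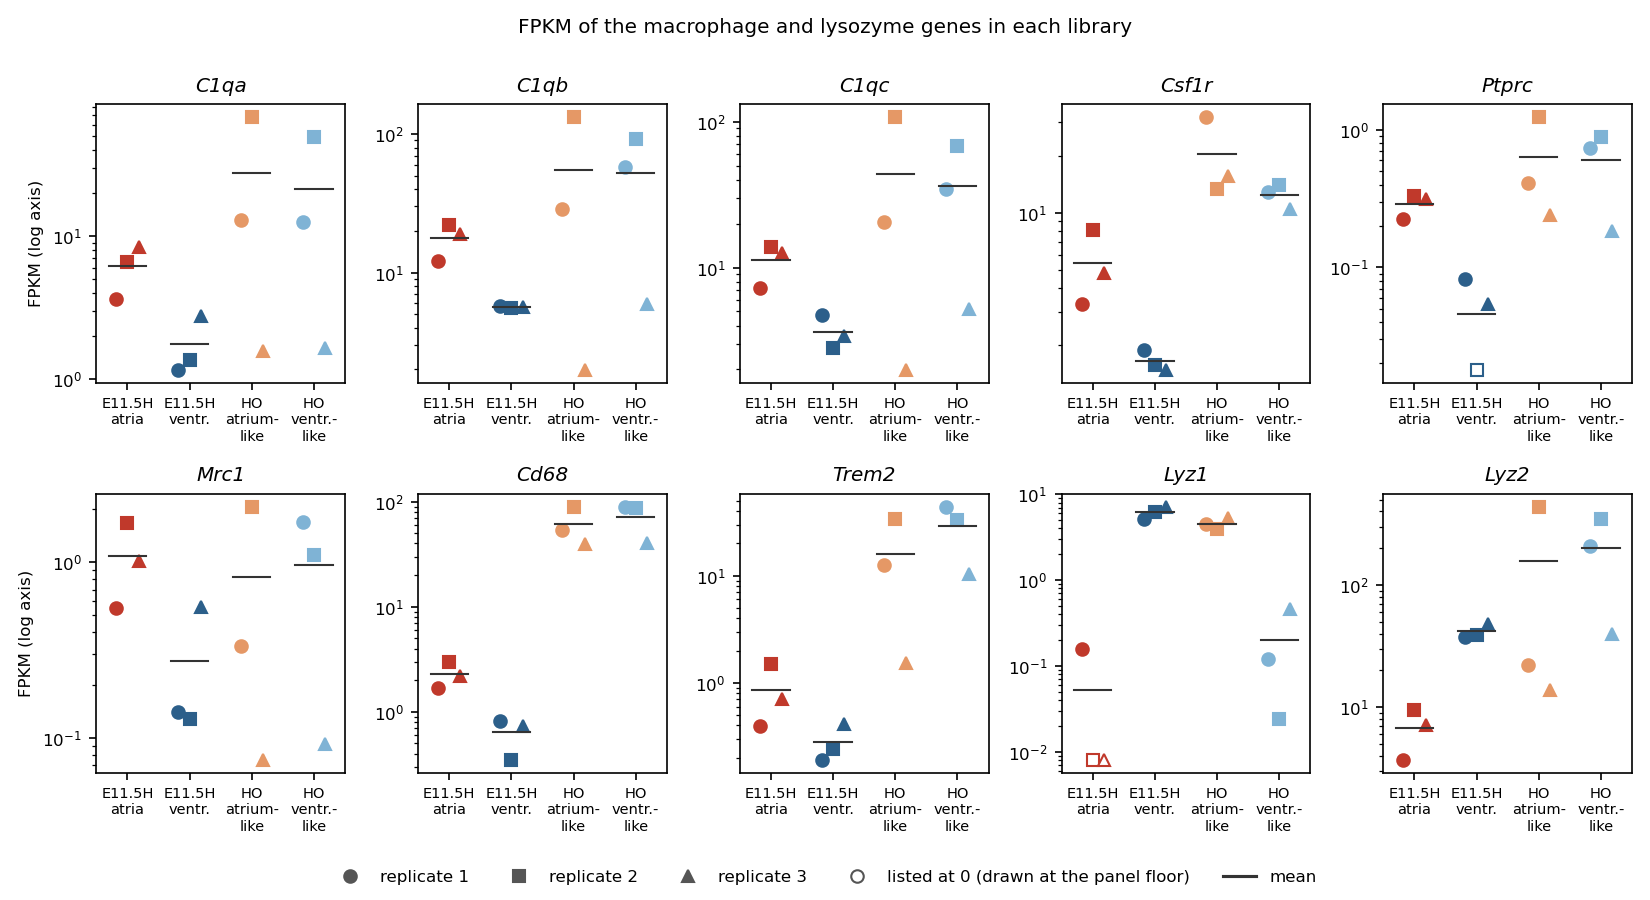
FPKM (log axis) of the 10 genes in each of the 12 libraries, by group, with the symbol giving the replicate and the line the group mean; open symbols at the panel floor are libraries listed at 0. In E11.5H the C1q genes, Csf1r and Cd68 sit higher in atria and the lysozyme genes higher in ventricles, and in HOs the C1q genes span over 1 order of magnitude within a group.

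Other macrophage genes were read from lists. Of 14 macrophage identity genes, 3 were called higher in atria of E11.5H and none lower, where 2.92% and 1.97% of all genes were. Of the 14, 13 had a fold change above 0, with a median log2 fold change of 1.10 against 0.01 over all genes tested. The 3 were Cx3cr1, the fractalkine receptor (log2 fold change 1.99, adjusted p = 0.00611), the protease gene Ctss (1.80, adjusted p = 0.00119) and the Fc receptor gene Fcgr3 (1.59, adjusted p = 0.0311). Of 10 tissue-resident embryonic macrophage genes, 6 were tested and 1 was called, the coagulation factor gene F13a1 (1.68, adjusted p = 0.0275). P2ry12, a purinergic receptor known from microglia, was also called higher in atria (2.63, adjusted p = 0.0431), at 0.331 to 0.778 FPKM in atria and 0.0363 to 0.146 FPKM in ventricles. Sall1, a transcription factor gene of microglia that other tissues use too, was lower in atria (-1.14, adjusted p = 0.00668), and Plac8, a monocyte gene, was higher (2.14, adjusted p = 0.00511). Lysosome genes ran the other way by small amounts. Of 16, 15 had a fold change below 0 and 7 had an adjusted p under 0.05, with log2 fold changes of -0.51 to -0.25 that did not reach the fold limit.

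Other blood cells were sought as well. Of 10 lymphocyte, dendritic and mast cell genes, 4 were at 0 in every atrial and 5 in every ventricular library. Among those at 0 in all E11.5H libraries were the T cell gene Cd3e, the natural killer cell gene Ncr1 and the antigen presentation gene H2-Aa. The summed level of the 10 genes was 3.13 to 4.31 FPKM in atria and 3.09 to 3.51 FPKM in ventricles. For 5 megakaryocyte and platelet genes it was 36.0 to 49.99 FPKM in atria and 18.9 to 33.5 FPKM in ventricles. By edgeR 0 of the 5 were called (3 had an unadjusted p under 0.05), and their part in the macrophage difference was not tested. For 6 monocyte genes, with Ly6c2 at 0 in all E11.5H libraries, it was 145 to 194 FPKM in atria and 117 to 136 FPKM in ventricles. Genes of fibroblasts and mesenchyme, 10 in number, summed to 552 to 705 FPKM in atria and to 391 to 459 FPKM in ventricles, and 10 endothelial genes to 158 to 190.5 FPKM over both chambers.

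Both lysozyme genes ran against the C1q genes in E11.5H. Lyz2 had 3.69, 9.39 and 7.20 FPKM in atria and 37.8, 39.1 and 47.9 FPKM in ventricles. Lyz1 had 0.156, 0 and 0 FPKM in atria and 5.12, 6.28 and 7.16 FPKM in ventricles. In fragments, Lyz1 had 7, 0 and 0 in atria and 207.5 to 267.5 in ventricles, and a count of 0 allows up to 3 fragments, which covers counting error only. The groups did not overlap for either gene. The log2 fold change was -2.70 for Lyz2 (SE 0.28, adjusted p = 1.56e-04) and -6.83 for Lyz1 (SE 0.77, adjusted p = 2.86e-04), the latter set by the few atrial fragments. For the sum of Lyz1 and Lyz2 it was -2.92 (adjusted p = 7.58e-05). In fragments that sum was mostly Lyz2.

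The ratio of Lyz2 to C1qb showed the opposition within single libraries. It was 0.304, 0.429 and 0.379 in atria and 6.60, 7.03 and 8.54 in ventricles, on the FPKM scale. Lyz1 reached 13.6%, 16.0% and 14.9% of the Lyz2 level in the ventricles. Neutrophils, which use Lyz2 too, left little trace. Of 9 neutrophil and granule genes, S100a8, S100a9, Elane and Ngp were at 0 in all E11.5H libraries, and the summed level of the 9 was 1.67 to 4.73 FPKM in atria and 1.08 to 1.93 FPKM in ventricles. Of 10 Paneth cell genes, 8 were at 0 in every atrial and 9 in every ventricular library, with a summed level of at most 0.313 FPKM. Of 10 erythroid genes 3 were called lower in atria and 1 did not overlap, against 1.97% and 33.1% of all genes tested. Their summed levels overlapped, at 7393 to 14483 FPKM in atria and 11641 to 73238 FPKM in ventricles. The part of erythroid cells in the lysozyme difference was not tested.

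Atrium-like parts were compared with atria. Cd68, Trem2 and Csf1r were called higher, Cd68 without any library near the embryonic range, and the C1q genes were not called. Cd68 had 54.3, 88.9 and 39.5 FPKM in atrium-like parts, against at most 2.98 FPKM in atria. The log2 fold change was 4.89 (SE 0.37, adjusted p = 0.00133), about 30-fold. Trem2 had 12.5, 34.0 and 1.53 FPKM in atrium-like parts, of which the lowest, in replicate 3, was barely above the highest atrial library at 1.5 FPKM (log2 fold change 4.32, SE 1.12, adjusted p = 0.0304). Csf1r had 32.1, 13.4 and 15.6 FPKM in atrium-like parts (log2 fold change 2.15, SE 0.52, adjusted p = 0.0246), and every value lay above atria. Among all genes the groups did not overlap for 54.4%, higher for 24.1% and lower for 30.3%.

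The C1q genes spread over so wide a range in atrium-like parts that they overlapped with atria. C1qb had 28.8, 134 and 1.98 FPKM, so that replicate 2 was above and replicate 3 below every embryonic library. C1qa had 13, 68.6 and 1.58 FPKM and C1qc 20.7, 108 and 1.98 FPKM. Their log2 fold changes against atria were 2.24, 1.71 and 2.04 for C1qa, C1qb and C1qc, with SE of 1.13 to 1.16 and adjusted p of 0.175, 0.298 and 0.217. Mrc1 had 0.335, 2.07 and 0.0751 FPKM (log2 fold change -0.31, SE 1.06, adjusted p = 0.846) and Ptprc 0.413, 1.25 and 0.239 FPKM (1.24, SE 0.67, adjusted p = 0.200). Both overlapped with atria.

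The lysozyme genes were called higher in atrium-like parts than in atria. Lyz1 had 4.52, 3.91 and 5.25 FPKM, close to one another and all above atria (log2 fold change 6.51, SE 1.37, adjusted p = 0.0164). Lyz2 had 22.3, 438 and 13.9 FPKM, with replicate 2 far above the others (4.58, SE 1.39, adjusted p = 0.0477). In all, 5 of the 10 genes were called higher and none lower, where 24.8% of the 15420 genes tested were called, 16.0% higher and 8.83% lower. The calls of this comparison fell when an embryonic replicate was left out: without replicate 1 of atria Cd68 and Lyz1 were called, and without replicate 2 or 3 Cd68 alone. Over all genes the calls fell as well, from 3824 to 1655, 1691 and 1723 without replicates 1, 2 and 3 of atria. Without replicate 3 of atrium-like parts C1qa and C1qc were called and Csf1r was not.

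Against ventricles, ventricle-like parts had Cd68, Trem2, Csf1r, C1qb and C1qc called higher, while C1qa, Mrc1 and Ptprc were not called. Cd68 had 89.7, 86.4 and 40.6 FPKM, a log2 fold change of 6.73 (SE 0.51, adjusted p = 0.00135). Trem2 had 44.1, 33.3 and 10.5 FPKM (6.59, SE 0.72, adjusted p = 0.00288). Csf1r had 12.8, 14.0 and 10.5 FPKM (2.82, SE 0.18, adjusted p = 0.00118). None of these overlapped with ventricles, where 50.7% of all genes did not, 29.6% higher and 21.1% lower. All 3 were called whichever library was left out.

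C1qb had 57.8, 92.3 and 5.88 FPKM in ventricle-like parts, the lowest just above the highest ventricular library at 5.72 FPKM (log2 fold change 3.10, SE 0.89, adjusted p = 0.0440). C1qc had 34.5, 68.3 and 5.22 FPKM (3.20, SE 0.87, adjusted p = 0.0373), and C1qa 12.6, 49.8 and 1.64 FPKM, which overlapped with ventricles (3.47, SE 1.17, adjusted p = 0.0692). The calls of C1qb and C1qc were lost without replicate 1 or 2 of ventricle-like parts and without any 1 replicate of ventricles. Over all genes, calls fell from 2863 to between 1119 and 1213 without 1 replicate of ventricles. Ptprc had 0.744, 0.886 and 0.185 FPKM and did not overlap (3.62, SE 1.31, adjusted p = 0.0844), and Mrc1 had 1.70, 1.10 and 0.0928 FPKM and overlapped (1.70, SE 1.12, adjusted p = 0.289).

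Lyz1 was the exception, at 0.121, 0.0242 and 0.463 FPKM in ventricle-like parts, all below ventricles (log2 fold change -5.01, SE 1.0, adjusted p = 0.0159). This call was lost without any 1 replicate of ventricles (adjusted p = 0.0622 to 0.0685) or without replicate 1 of ventricle-like parts (adjusted p = 0.0546). Lyz2 had 210.0, 347 and 40.0 FPKM, of which replicate 3 lay among the ventricular libraries (2.15, SE 0.70, adjusted p = 0.0634). In all, 5 of the 10 genes were called higher and 1 lower, where 19.0% of the 15094 genes tested were called, 11.6% higher and 7.37% lower. The pair of comparisons with E11.5H shares no library.

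**Figure D2:**
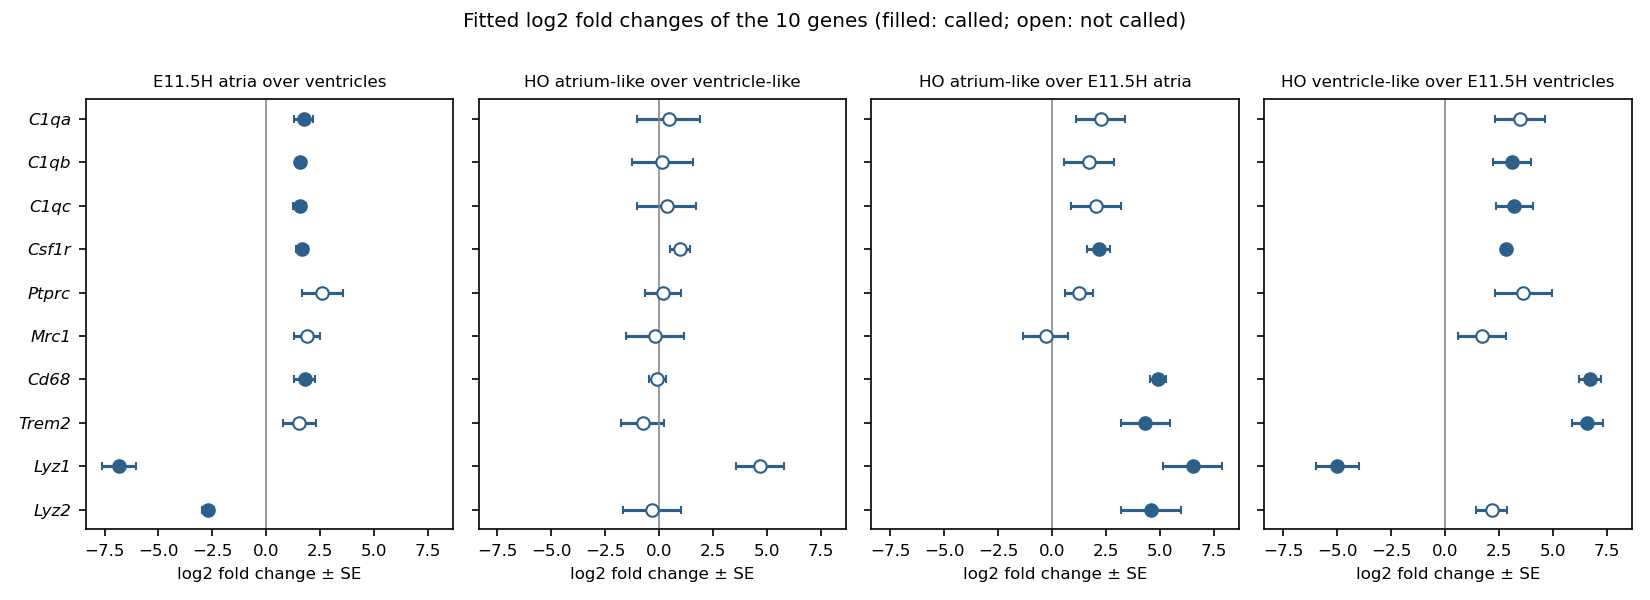
Log2 fold change with its standard error for the 10 genes in 4 comparisons, with filled points for called genes and open points for genes not called. Lyz1 lies below 0 between the chambers of E11.5H and above 0 between the parts of HOs, and Cd68 and Trem2 lie highest among the genes above 0 between ventricle-like parts and ventricles.

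The scale of the libraries bears on these differences. When library sizes were set to equal cardiomyocyte expression in place of TMM, the median fold change over all genes, on the log2 scale, moved by 4.27 in atrium-like parts against atria and by 3.02 in ventricle-like parts against ventricles, and the higher genes among those called rose from 64.4% to 99.5% and from 61.1% to 99.5%. All 10 genes were then called, Lyz1 still lower in ventricle-like parts at -2.54, and Mrc1 turned from -0.31 to 3.72 in atrium-like parts. Relative to the median of all genes, Cd68 stayed at 4.88 and 6.74 and Mrc1 at -0.60 in atrium-like parts. Between the chambers of E11.5H the same scaling moved the median by 0.35, and the higher genes among those called rose from 59.8% to 82.3%.

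Lysosome genes, among which Cd68 belongs by its place in the cell, were higher in HOs as a list. Of 16 lysosome genes, 15 were called higher in atrium-like parts and 10 in ventricle-like parts against the matching chamber, and none was lower. Of all genes tested 16.0% and 11.6% were called higher. The summed level of the 16 lay between 1039 and 1233 FPKM in E11.5H and between 2945 and 4280 FPKM in HOs. The sialidase gene Neu1 had log2 fold changes of 4.85 (adjusted p = 0.00905) and 2.33 (adjusted p = 0.0373), and the tetraspanin gene Cd63 2.47 (adjusted p = 0.00123) and 1.68 (adjusted p = 0.00317). The cathepsin genes Ctsb and Ctsd were called in both. The median log2 fold change of the list was 2.16 and 1.44, against 0.06 and 0.09 over all genes tested. Epithelia and other cells hold lysosomes too, and their part in this was not tested.

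A list that joins microglia genes with genes known to follow Trem2 in phagocytes was also higher in most of its genes. Of 10 microglia and Trem2 response genes, 6 were called higher in each HO part, against 16.0% and 11.6% of all genes tested. Spp1, encoding osteopontin, had at most 0.595 FPKM in E11.5H and at least 21.8 FPKM in HOs (log2 fold change 8.55 in atrium-like and 9.73 in ventricle-like parts). Gpnmb, a glycoprotein of lipid-laden phagocytes, had log2 fold changes of 6.01 and 9.57, and Lgals3, a galectin that epithelia also make, 8.50 and 7.58. Apoe, which carries lipids, was already at 151 to 247 FPKM in E11.5H and rose by 2.38 and 2.39. The part of epithelial and endoderm cells in the genes of this list was not tested.

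Of the 14 macrophage identity genes, 4 were called higher in atrium-like parts (Cd14, Ctss, Mertk and Fcgr3) and 9 in ventricle-like parts, where 16.0% and 11.6% of all genes tested were called higher, with Cd14, the co-receptor of bacterial lipopolysaccharide, first at 5.90 and 6.98. The summed level of the 14 was 35.4 to 53.9 FPKM in atria, 17.0 to 24.2 FPKM in ventricles, 39.6 to 380.4 FPKM in atrium-like and 76.8 to 376 FPKM in ventricle-like parts. P2ry12 had 0 to 0.358 FPKM in atrium-like parts, which overlapped with atria at 0.331 to 0.778 FPKM. In ventricle-like parts it had 0 to 0.0241 FPKM, below ventricles at 0.0363 to 0.146 FPKM. That difference rested on 0 to 2 fragments against 3 to 11, and 21.1% of all genes tested lay lower there without overlap. Of the tissue-resident embryonic macrophage genes, 7 were tested in ventricle-like parts against ventricles, 4 with a fold change above 0, at a median of 0.18. Folr2, a folate receptor gene (3.03, adjusted p = 0.0188), and Cbr2, a carbonyl reductase gene (3.85, adjusted p = 0.0260), were called higher. In atrium-like parts against atria 1 of 6 had a fold change above 0, at a median of -0.76, and 2 had an unadjusted p under 0.05 but no adjusted p below it by edgeR. Stab1, a scavenger receptor gene, had 0.262 to 3.6 FPKM in ventricle-like parts and 6.01 to 7.06 FPKM in ventricles (-2.04, adjusted p = 0.108). Timd4 was at 0 in all HO libraries, and in E11.5H it reached at most 3 fragments (0.0467 FPKM), no more than a count of 0 allows.

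Early complement components outside the C1q chains are made by liver and mesenchyme as well as by macrophages. Of 12 complement and phagocytosis genes, 6 were called higher in atrium-like and 9 in ventricle-like parts, against the same 16.0% and 11.6% of all genes. C1s1 and C1ra, the proteases that C1q carries, had log2 fold changes of 10.98 and 8.15 in atrium-like and 8.79 and 6.60 in ventricle-like parts, and C3 had 4.57 and 6.19. The summed level of 12 hepatocyte and visceral endoderm genes was at most 5.99 FPKM in E11.5H and 33.5 to 15540 FPKM in HOs, and the part of such cells in the complement genes was not tested. Of 10 macrophage factors and growth factors 5 were called higher in each HO part. The transcription factor genes Runx1 (3.43 and 4.97), Irf8 (3.44 and 2.34), Maf (2.64 and 2.47) and Cebpa (4.99 and 4.53) were called in both HO parts. Spi1 was not called in either, at 0.0633 to 10.02 FPKM in atrium-like parts (1.21, adjusted p = 0.505) and 0.996 to 10.5 FPKM in ventricle-like parts (3.11, adjusted p = 0.0662), and overlapped with E11.5H in both. The ligand gene Csf1 was called in ventricle-like parts alone (2.14, adjusted p = 0.0469), and the difference between the parts was not called. The part of epithelial, endoderm and other cells in the factor genes was not tested.

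**Figure D3:**
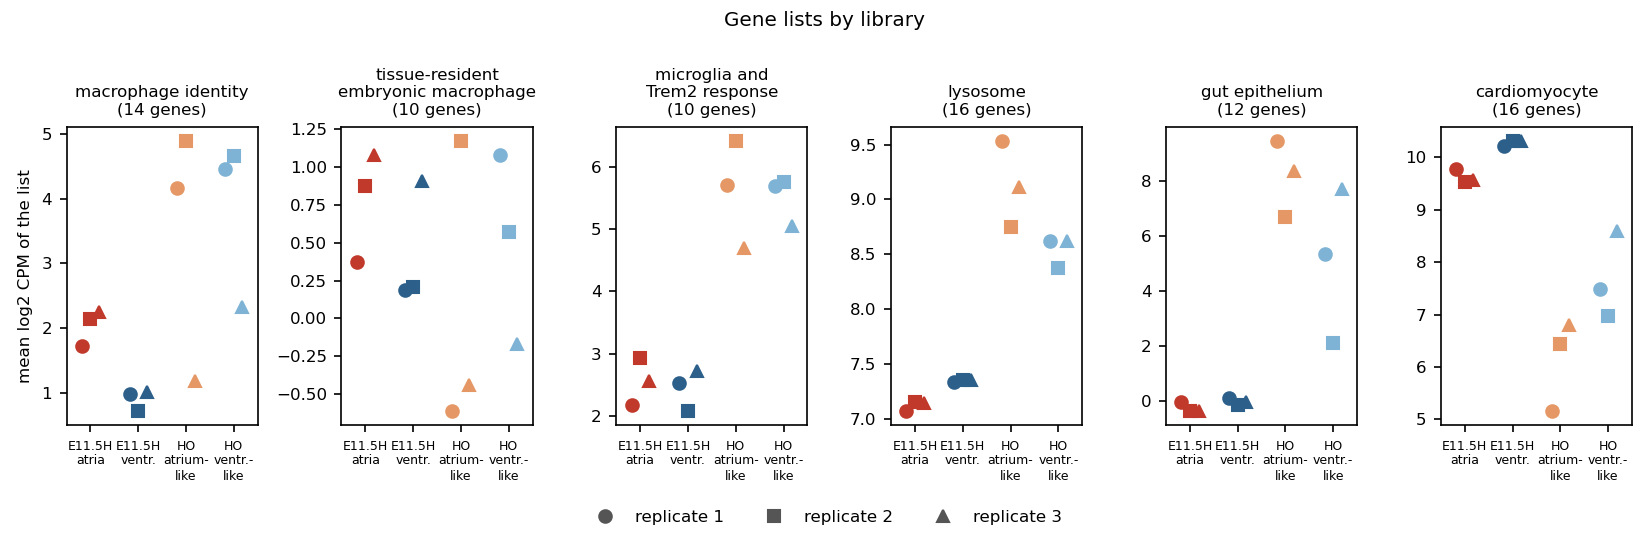
Mean log2 CPM of 6 gene lists in each library, by group, with the symbol giving the replicate. Lysosome and gut epithelium genes lie higher in every HO library than in E11.5H, macrophage identity genes lie lowest among HOs in replicate 3 of both parts, and cardiomyocyte genes lie lower in every HO library than in E11.5H.

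Within HOs, between their atrium-like parts and ventricle-like parts, no macrophage or lysozyme gene was called. By edgeR, 0 of the 10 passed (1 had an unadjusted p under 0.05), DESeq2 called 1 and limma 0, and edgeR called 0% of the 15704 genes tested. Log2 fold changes of the C1q genes were 0.45 for C1qa, 0.14 for C1qb and 0.34 for C1qc, with SE of 1.35 to 1.46. For Csf1r the value was 0.96 (SE 0.46, adjusted p = 0.750), for Trem2 -0.78 (SE 1.01, adjusted p = 0.849) and for Cd68 -0.10 (SE 0.39, adjusted p = 0.951). With such errors a difference of the size seen in E11.5H was not detectable for the C1q genes. The difference of the chamber effects between HOs and E11.5H was tested over all 12 libraries, where 0.152% of 16496 genes were called, and again 0 of the 10 genes passed by edgeR (2 had an unadjusted p under 0.05, and DESeq2 and limma each called 1). For Cd68 it was -1.85 (SE 0.56, adjusted p = 0.277).

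The spread within HOs was the larger feature, and it was shared by most of the genes. From the lowest to the highest of the 6 HO libraries C1qb varied 67.7-fold, C1qc 54.7-fold, C1qa 43.5-fold, Lyz2 31.4-fold, Trem2 28.8-fold, Mrc1 27.6-fold and Ptprc 6.75-fold. Cd68 varied 2.27-fold and Csf1r 3.05-fold. Lyz1 varied most, 217-fold. Replicate 3 was lowest in both parts for the C1q genes, Mrc1, Ptprc, Trem2, Cd68 and Lyz2, and replicate 2 of atrium-like parts was highest for the C1q genes, Mrc1, Ptprc and Lyz2.

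Which genes varied together was measured as the correlation of log2 CPM over the 6 HO libraries, in a family of 30 relations with exact permutation tests. Of 15 relations in HOs 7 passed. C1qb followed C1qc (r = 0.997, not in the family) and C1qa (r = 0.956, rho = 0.886, exact p = 0.00694, adjusted p = 0.0417; exact p of rho 0.0333, adjusted p = 0.0833). It also followed Ptprc (r = 0.931, rho = 0.943, exact p = 0.0125, adjusted p = 0.0492; exact p of rho 0.0167, adjusted p = 0.0714), with r = 0.982 without the libraries farthest from the median. Against C1qb, r was 0.956 for Mrc1 (rho = 0.943, exact p = 0.00694, adjusted p = 0.0417), 0.921 for Trem2 (rho = 0.829, exact p = 0.00694, adjusted p = 0.0417), 0.941 for Cd68 (rho = 0.771, exact p = 0.0181, adjusted p = 0.0492) and 0.869 for Lyz2 (rho = 0.943, exact p = 0.0181, adjusted p = 0.0492). The exact p of rho was 0.0167 for Mrc1 and Lyz2, 0.0583 for Trem2 and 0.103 for Cd68, with adjusted p of 0.0714, 0.117 and 0.162. Without the pair of libraries farthest from the median, replicate 3 of both parts, r was 0.788 for Mrc1, 0.576 for Trem2, 0.635 for Cd68 and 0.915 for Lyz2, so that the relations of Trem2 and Cd68 rested largely on those libraries. All 6 libraries share the differences in tissue make-up described above.

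Csf1r did not follow. Its r with C1qb was -0.005 (rho = -0.143, exact p = 0.997, adjusted p = 0.997; exact p of rho 0.803) and with Cd68 0.055 (rho = -0.086, exact p = 0.981, adjusted p = 0.997; exact p of rho 0.919). Without the libraries farthest from the median of C1qb the value with C1qb was -0.795, and without those farthest from the median of Csf1r, replicates 1 and 3 of atrium-like parts, the value with Cd68 was 0.986, so that neither was steady. The ratio of C1qb to Csf1r shows the difference between the tissues. It stayed between 2.68 and 3.93 in the 6 E11.5H libraries and ran from 0.127 to 9.99 in HOs. Csf1r was highest in replicate 1 of atrium-like parts, which also had the highest Epcam, an epithelial adhesion gene, at 701 FPKM, and in replicate 3, where C1qb was at 1.98 FPKM, Csf1r still reached 15.6 FPKM. The part of epithelial RNA in this was not tested. Csf1r overlaps Hmgxb3 on the opposite strand, and the use of strand in counting is not given in the sources used here.

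Cd68 stood higher relative to both genes in every HO library. The ratio of C1qb to Cd68 lay between 6.93 and 16.0 in E11.5H and between 0.05 and 1.5 in HOs, and the ratio of Cd68 to Csf1r between 0.220 and 0.509 in E11.5H and between 1.69 and 6.99 in HOs. No library of HOs fell within the E11.5H range of either ratio. Trem2 relative to Cd68 reached from 0.231 to 0.700 in the embryo and from 0.0387 to 0.491 in HOs, which overlapped. In E11.5H the libraries separated by chamber for C1qb, Cd68 and Csf1r but not for Trem2, and no correlation of these genes over E11.5H is given.

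**Figure D4:**
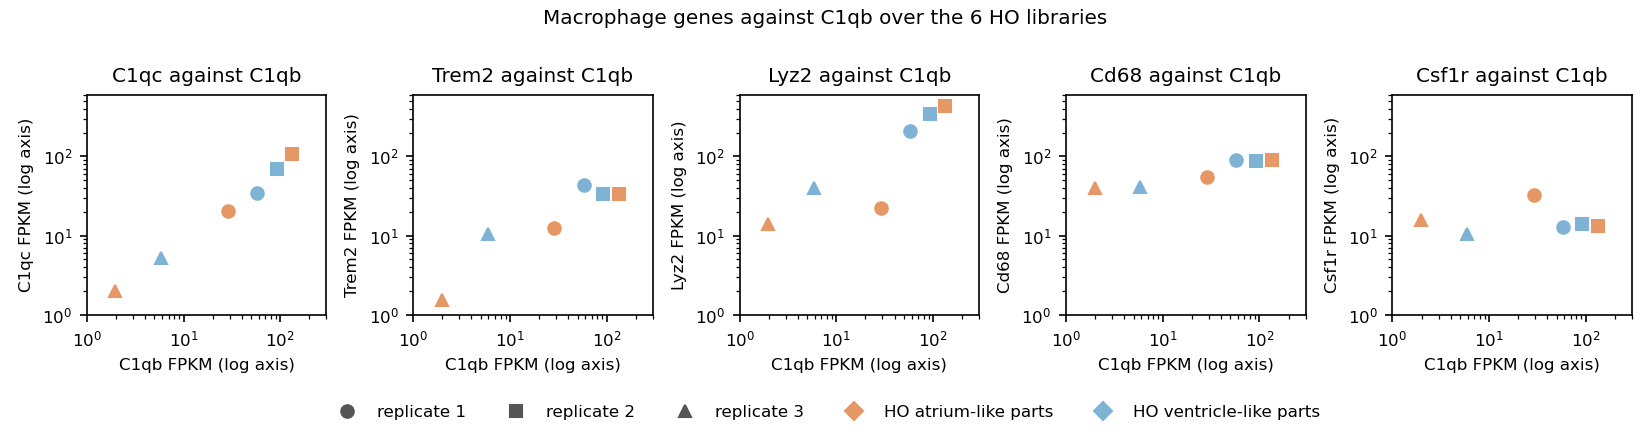
FPKM of C1qc, Trem2, Lyz2, Cd68 and Csf1r against C1qb (both axes log) in the 6 HO libraries, with colour giving the part and the symbol the replicate. C1qc follows C1qb over the whole range, Cd68 follows within a 2.27-fold span, and Csf1r is highest at a middling level of C1qb.

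Lyz1 had opposite chamber patterns in embryo and HOs. It was at 163.5, 167.7 and 216 fragments in atrium-like parts and at 5, 1 and 19 in ventricle-like parts, so that the parts did not overlap, as was so for 13.3% of the genes tested, 4% higher and 9.25% lower in atrium-like parts. In E11.5H ventricles were the higher chamber, again without overlap. The log2 fold change between the HO parts was 4.66 (SE 1.10) with an unadjusted p of 0.00507 and an adjusted p of 0.750, and it was not called by edgeR. DESeq2 called it (adjusted p = 0.00244) and limma did not. The difference between the chamber effects was 11.48 (SE 1.86, adjusted p = 0.0550), just outside the threshold. DESeq2 gave an adjusted p of 1.70e-11 and limma at a pseudocount of 1 gave 4.22e-05, and over all alternatives the adjusted p ran up to 0.190 among those that kept Lyz1 as a gene of its own. Lyz1 was chosen with earlier results of these data known, so these p-values are no independent support for its pattern. With Lyz1 and Lyz2 summed the difference was 2.71 (adjusted p = 0.493), a sum that was mostly Lyz2 in every library.

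The order of the groups was ventricles of E11.5H (6.19 ± 1.03 FPKM), atrium-like parts (4.56 ± 0.669), ventricle-like parts (0.203 ± 0.231) and atria (0.0521 ± 0.0903; SD, n = 3 each), with overlap between the last 2 and 1 library of overlap between the first 2. Lyz2 did not share this pattern in HOs, where it overlapped between the parts (log2 fold change -0.32, SE 1.35, adjusted p = 0.952). Lyz1 as a share of Lyz2 was 20.3%, 0.893% and 37.7% in atrium-like parts and 0.0575%, 0.00697% and 1.16% in ventricle-like parts. In replicate 2 of ventricle-like parts 11988.7 fragments of Lyz2 stood beside 1 of Lyz1, so that at most 1 fragment of Lyz2 was assigned to Lyz1 there.

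Values of epithelial genes are set beside Lyz1. The mean log2 CPM of 12 gut epithelium genes was 9.45, 6.67 and 8.35 in atrium-like and 5.35, 2.09 and 7.69 in ventricle-like parts, and the ventricle-like library with the most Lyz1, replicate 3, was the one with the most of these genes. That library had more of them than replicate 2 of atrium-like parts, yet less Lyz1, at 0.463 against 3.91 FPKM. Over the 6 HO libraries Lyz1 and Epcam had r = 0.855 (rho = 0.886, exact p = 0.0222, adjusted p = 0.0513; exact p of rho 0.0333, adjusted p = 0.0833), and 0.362 without replicates 1 and 2 of ventricle-like parts. In E11.5H the summed gut epithelium genes were at 75.1 to 93.5 FPKM in atria and 83.8 to 103 FPKM in ventricles, beside the higher Lyz1 of the ventricles. Between these chambers 7 of the 12 genes were tested, and 1 had a fold change above 0. Of the 7, 1 was called lower in atria, against 1.97% of all genes tested. Their median log2 fold change was -0.47, against 0.01 over all genes tested. Of the Paneth cell genes, Defa24, Defa5, Ang4 and Mptx2 were at 0 in all HO libraries, while the lectin genes Reg3b and Reg3g were called higher in both HO parts and the protease gene Mmp7 in atrium-like parts, against E11.5H. The summed level of the list was 30.6 to 405 FPKM in atrium-like and 102 to 326 FPKM in ventricle-like parts, overlapping where Lyz1 did not. The part of epithelial cells in the Lyz1 pattern was not tested. The 7 other genes of the lysozyme family were at or near 0, with a summed level of at most 0.338 FPKM, and none was tested.

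The genes most like 5 of the members were found among 16496 genes by Pearson's r of log2 CPM over the 12 libraries. For C1qb they were C1qc (0.988), the macrophage marker Adgre1 (0.959), Laptm5 (0.955), C1qa (0.950) and Fcrls (0.950), which are genes of macrophages and other white blood cells. For Cd68 they were Klf9 (0.988), Casp4 (0.987), Lnx1 (0.982), Scamp1 (0.980) and Nfkbia (0.979), none of which is a macrophage marker of the lists used here. Klf9 had at most 1.35 FPKM in E11.5H and at least 9.67 FPKM in HOs, a step between the tissues like that of Cd68. For Csf1r they were Pgm1 (0.975), Mirg (0.968), Plac8 (0.962), Gmeb2 (0.959) and Atp8b1 (0.957).

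For Lyz1 the most alike genes were Kcne3 (0.905), Afg3l1 (0.899), Prdm16 (0.878), Mfge8 (0.864) and Rab11fip5 (0.864). Prdm16, a factor of the ventricular wall, had 0.175 to 0.210 FPKM in atria and 1.54 to 1.90 FPKM in ventricles, and in HOs 0.610 to 3.28 FPKM in atrium-like and 0.281 to 1.08 FPKM in ventricle-like parts. For Lyz2 they were Scn3b (0.959), Hr (0.940), Thbs1 (0.940), Spry4 (0.938) and Pde1b (0.937), of which Thbs1, encoding thrombospondin, had 15.0 to 19.7 FPKM in atria, 37.1 to 43.1 FPKM in ventricles and 20.0 to 394 FPKM in HOs. These likenesses are over libraries that share tissue and chamber, and they are descriptions. The nearest genes of C1qb and of Cd68 had no gene in common.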

How the data were processed

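RNA of 3 biological replicates per group was sequenced as bulk libraries. Per the study's methods, STAR was used by the authors to align reads to the mouse genome (GRCm38/mm10). The deposited estimated counts are fragment numbers per gene, of which 23.8% were not whole, and they were rounded here. The deposited FPKM values were computed by the authors per gene and library. The counting tool, annotation and use of strand are not given in the sources used here. Each comparison was tested on the counts of its own 6 libraries with edgeR 4.0.16 (quasi-likelihood test, TMM, Benjamini-Hochberg adjusted p, low genes removed by filterByExpr at a minimum of 10) in R 4.3.3, and the difference of the chamber effects on all 12 libraries. A call needed both an adjusted p below 0.05 and a log2 fold change beyond 1 in size. DESeq2 1.42.0 and limma 3.58.1 on log2(FPKM + 1) or log2(FPKM + 0.1), other scalings, no filter, a replicate block and the removal of each library in turn were alternatives. The scripts were tested on simulated data. Correlations used log2 CPM and exact two-sided permutation tests. Named genes were the 10 members, list genes past the threshold (up to 6 a list, largest fold first) and the 5 genes most alike to C1qb, Csf1r, Cd68, Lyz1 and Lyz2. List genes at 0 and those without a call, such as Spi1 and Stab1, were named after their values were seen. The members and lists were chosen with earlier results of these data known. A count of 0 allows up to 3 fragments, 0.0982 to 0.125 CPM. The p-values measure the spread between these libraries. The labels do not say whether same-numbered libraries are pairs.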

Additional observations from a re-analysis of the deposited data

Results flagged for a closer look

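Among the members and the called genes of the macrophage, microglia, complement and lysosome lists, Lyz1 and Ctsz were flagged. Their atrial and ventricular libraries did not overlap in either tissue and the direction was opposite. Over all genes tested, the groups did not overlap for 33.1% in E11.5H and 13.3% in HOs. The share of all genes with opposite directions in the tissues was not counted. The log2 fold change of Lyz1 was -6.83 between embryonic chambers and 4.66 between the parts of HOs, and the difference between these effects was 11.48, with an adjusted p of 0.0550 by edgeR. For Ctsz, a lysosomal protease gene, the log2 fold changes were -0.41 and 0.86, and the difference was 1.27, with an adjusted p of 0.213. Neither difference passed the threshold. Groups of 3 libraries were not tested for outlying samples.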

How the results depend on the processing

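Over the 10 genes and 5 comparisons, 550 log2 fold changes were computed under other settings. Of these, 495 kept their side of the threshold, 27 became significant, 26 lost significance and 2 reversed. A reversal was counted only where the gene was called before or after, so the 495 include changes of sign in genes not called. Between HO parts, Lyz1 went from 4.66 to -0.27 when summed with Lyz2. Scaled to cardiomyocyte genes, 2 genes were called between HO parts (Csf1r and Lyz1), 10 in atrium-like parts against atria, 10 in ventricle-like parts against ventricles and 1 for the difference of chamber effects (Lyz1), and Mrc1 in atrium-like parts reversed to 3.72. For that difference DESeq2, limma at either pseudocount and no filter on low counts also called 1, Lyz1. DESeq2 called 1 between HO parts. In atrium-like parts against atria limma with a pseudocount of 1 called 3. The sum of Lyz1 and Lyz2, nearly all Lyz2 in ventricle-like parts, was 1.92 there against ventricles, which restates Lyz2 and is no check of the negative value of Lyz1. With all 12 libraries in 1 fit 0 genes were called between the chambers of E11.5H, where the wider spread of HOs entered the fit. The cause of the other changes was not tested.

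Whether equal numbers mark the same hearts or HOs is not given. Same-numbered deviations from the group means had r of at most 0.15 in E11.5H, and of -0.072, 0.620 and 0.382 in HOs, so that not every pair deviated together. With the replicate number as a block, 0 genes were called between HO parts, as without it, 2 genes were called in atrium-like parts against atria (Cd68 and Lyz1), 4 in ventricle-like parts and 6 between the chambers of E11.5H. Over all genes the block moved the count from 711 to 620, from 3824 to 2818, from 2863 to 2005 and, for the difference of chamber effects, from 25 to 5.

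With 1 library left out, the genes called numbered 5 to 7 between the chambers of E11.5H, 0 to 0 between HO parts, 1 to 6 in atrium-like parts, 3 to 8 in ventricle-like parts and 0 to 1 for the difference of chamber effects. Ventricle-like calls fell to 3 without any 1 ventricular library or without replicate 1 of ventricle-like parts, and rose to 8 without replicate 3. For the difference, Lyz1 was called without replicate 2 of atrium-like parts or replicates 2 or 3 of ventricle-like parts. Of the 15 HO correlations 7 passed, and 0 to 0 with 1 library left out, where 120 pairings are too few to judge.

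Over all genes, the chamber count in E11.5H was 711, and 1196 scaled to cardiomyocyte genes, 386 by limma with a pseudocount of 1, 1981 with no fold limit and 30 in 1 fit of all 12 libraries. Between HO parts it was 0, and 1565 scaled to cardiomyocyte genes and 56 by DESeq2. Atrium-like parts had 3824 and 14451 when scaled so, and ventricle-like parts 2863 and 13896, and 4467 with no fold limit. The difference of chamber effects had 25, and 434 by DESeq2, 89 and 45 by limma and 12 scaled to cardiomyocyte genes, where the share of higher calls went from 16.0% to 58.3%.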
